A study of Homo sapiens with 30 samples.

Results

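The genes described here make, sense and move bile acids. They are 10 of the 60675 genes in the deposited table, taken by name: the synthesis enzymes CYP7A1, CYP8B1, CYP27A1 and AKR1D1, the bile acid receptor FXR (gene NR1H4) and its target SHP (gene NR0B2), the hormone FGF19, and the exporters SLC51A, SLC51B and ABCB11. All were measured by RNA sequencing in HepG2, an established human liver cancer cell line, after 24 h of treatment. Ethanol extracts of 4 herbal formulas were each given at 20 µg/mL (low), 100 µg/mL (medium) and 500 µg/mL (high), and the vehicle group received DMSO alone. The 30 libraries form 13 groups: 3 vehicle libraries, 3 per dose of Palmul-tang and of Sibjeondaebo-tang, 2 per dose of Samul-tang and 1 per dose of Sagunja-tang. By traditional recipe Palmul-tang joins the herbs of Samul-tang with those of Sagunja-tang, and Sibjeondaebo-tang adds Astragalus root and cinnamon bark to that mixture. DMSO is given as 0.1% in the sample labels and as 2% in the series text, and every group is the same cell line on the same schedule.

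In the liver, cholesterol is turned into bile acids by a classic route that starts with CYP7A1, the rate-limiting cholesterol 7-alpha-hydroxylase, and by an alternative route that starts with the mitochondrial enzyme CYP27A1. CYP8B1 sets the share of cholic acid, and AKR1D1 reduces the steroid ring on both routes. Bile acids bind FXR, a nuclear receptor that works with its partner RXR. FXR then raises SHP, a receptor-like protein without a DNA-binding domain that represses CYP7A1, and it also raises the exporter ABCB11 at the bile canaliculus and the basolateral exporter made of the subunits SLC51A and SLC51B (OST-alpha and OST-beta). FGF19 is made mainly in the ileum and signals to the liver through FGFR4 and KLB to lower CYP7A1.

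**Figure D1:**
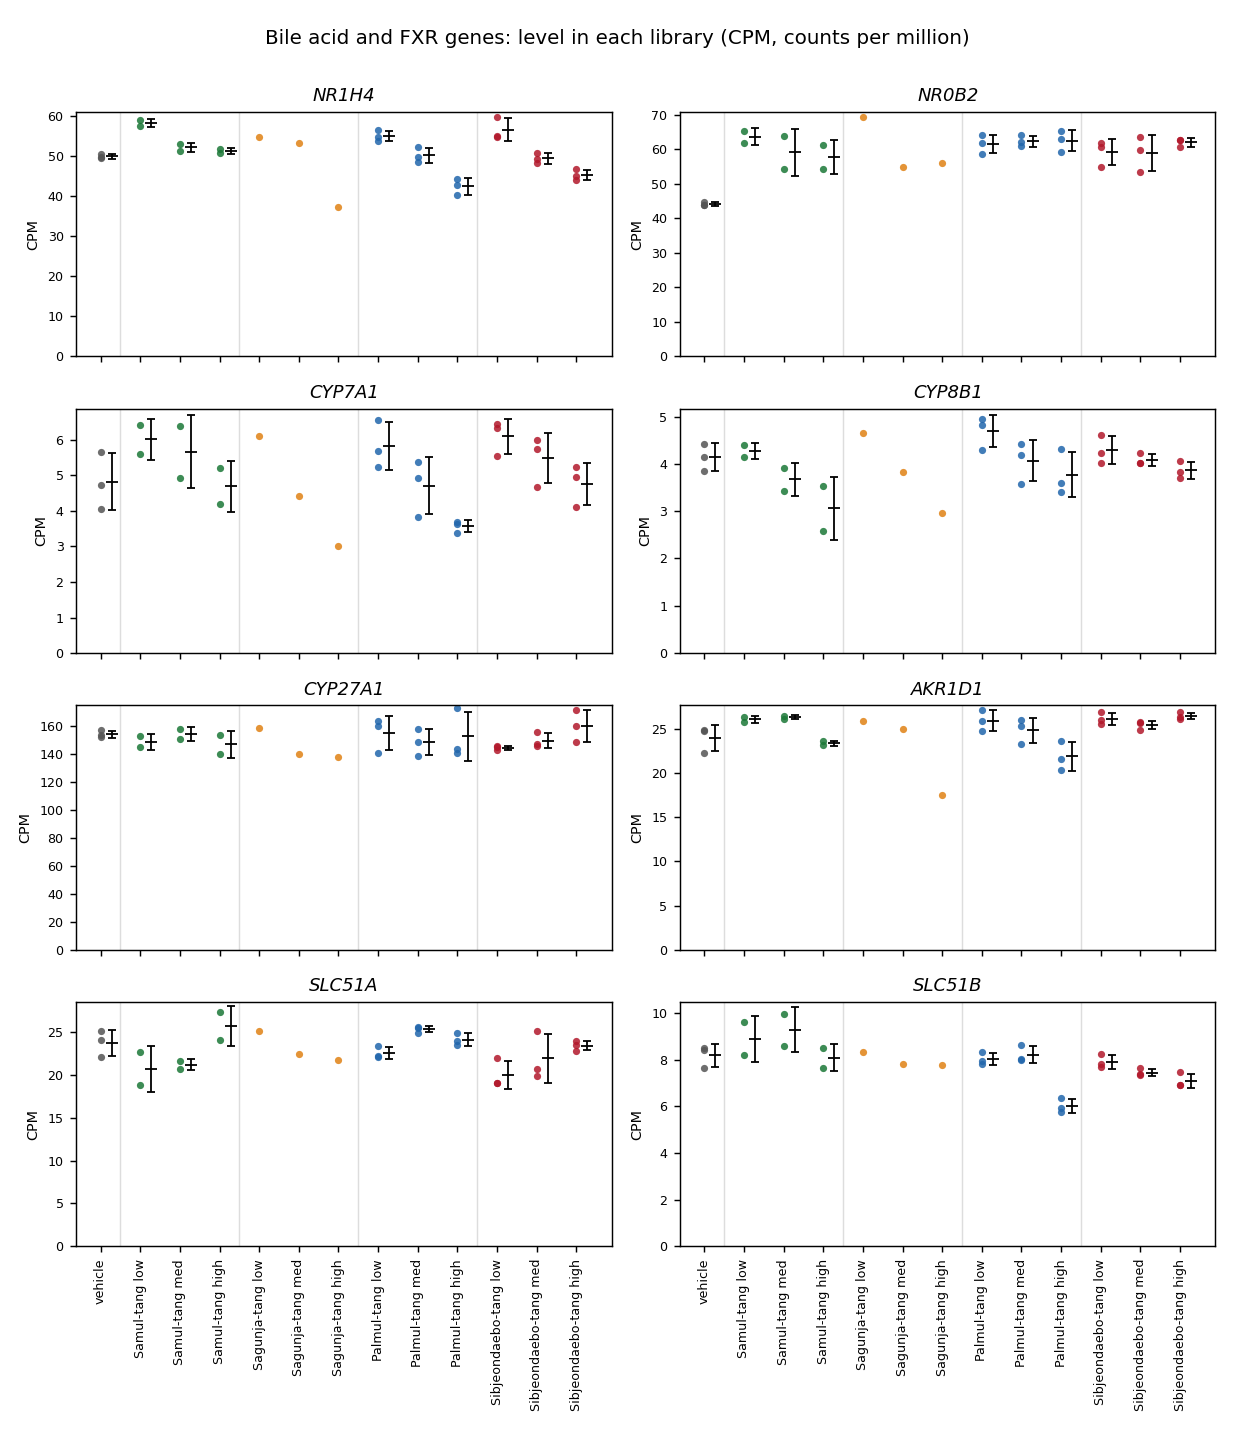
Level of 8 genes in each of the 30 libraries, in CPM (counts scaled to library size) on a linear axis that starts at 0, with groups on the horizontal axis. Each dot is 1 library, and the bar beside a group is its mean ± SD where the group has more than 1 library. NR0B2 is the panel in which every extract library (53.4 to 69.4 CPM) lies above the vehicle libraries (43.7 to 44.7 CPM), and NR1H4 is lowest in the high dose of Sagunja-tang, Palmul-tang and Sibjeondaebo-tang.

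Transcripts of 8 of the 10 genes were abundant enough to test, and the remaining 2 were near the limit of detection. Set per kilobase of exon, the vehicle level was highest for CYP27A1 at 51.8 ± 0.786 CPM per kb (SD, n = 3) and NR0B2 at 38.1 ± 0.479 CPM per kb. NR1H4 followed at 13.7 ± 0.155 CPM per kb, SLC51B at 8.72 ± 0.519, AKR1D1 at 7.75 ± 0.483 and SLC51A at 4.48 ± 0.29 on the same per-kb scale. The enzymes of the classic route were low, with CYP7A1 at 1.63 ± 0.272 CPM per kb and CYP8B1 at 0.933 ± 0.0652 CPM per kb. FGF19 (chromosome 11, 69698232 to 69704642, GRCh38) had 1 to 7 counts in a library, 99 counts over all 30 libraries, and a level of 0.0351 to 0.211 CPM. ABCB11 (chromosome 2, 168915498 to 169031324), the canalicular bile salt export pump, had 0 to 2 counts in a library and 6 counts in all, with a count above 0 in 5 libraries. In the other 25 libraries a count of 0 allowed a level of up to 3 counts, or 0.0809 to 0.139 CPM. These counts were too low for a test, so a difference of FGF19 or ABCB11 between groups was not detectable at this depth.

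Several facts of the libraries touch these results. Totals ran from 21570416 to 37707232 expected counts, and the markers of hepatocytes were high throughout, with ALB at 8389 to 11999 CPM. Among 5 markers of the intestine, where FGF19 is normally made, VIL1 (271 to 319 CPM) and LGR5 (98.5 to 127 CPM) were found throughout. CDX2 was at most 0.195 CPM, SLC10A2 was at 0 in all 30 libraries and FABP6 at 0 in 29. Nothing in the labels says that replicates came from separate cultures, so a p-value here measures the spread between these libraries, which may be technical. The sample titles give vehicle and extract libraries alike the batch letter E. Prefixes in the column labels differ, with 1 for vehicle and another for Samul-tang and Sagunja-tang. A further prefix marks Palmul-tang and Sibjeondaebo-tang, and the meaning of the prefixes is not given. An extract effect and a difference between these prefix sets cannot be told apart in any comparison with vehicle. High against low dose, and Sibjeondaebo-tang against Palmul-tang, are comparisons within a set. Replicate 3 of Sibjeondaebo-tang low stood apart by its fibroblast genes, whose summed level was 33.9 CPM against at most 7.62 CPM elsewhere, with COL1A1 at 8.29 CPM and DCN at 1.9 CPM (0 in the other 29 libraries). Not all markers of that list set it apart. PDGFRB had 7.47 CPM there against at most 7.34 CPM elsewhere, and THY1 was highest in vehicle replicate 1 (0.0734 CPM). In bulk RNA, fewer cells of a kind and less RNA per cell cannot be told apart.

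NR0B2 (SHP; chromosome 1, 26911489 to 26913966, GRCh38) was higher with every extract at every dose than with vehicle. The vehicle libraries had 43.7, 43.7 and 44.7 CPM. Palmul-tang high had 63, 65.2 and 59.1 CPM, and Palmul-tang low had 64, 58.6 and 61.9 CPM. Every one of the 27 extract libraries lay above all 3 vehicle libraries, a pattern that 5.25% of tested genes share. NR0B2 rose at all 9 doses that could be tested, as did 2.7% of tested genes. The log2 fold change against vehicle was 0.51 ± 0.064 (SE) in Palmul-tang high (adjusted p = 4.21e-07, edgeR quasi-likelihood test with Benjamini-Hochberg adjustment over 16083 genes, as for every adjusted p below), which is 1.42 times the vehicle level. Over the 9 doses it ran from 0.39 in Samul-tang high (adjusted p = 0.000209) to 0.53 in Samul-tang low (adjusted p = 1.13e-05). The call held under every alternative.

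The NR0B2 level was not shown to follow the dose in the 3 formulas that could be tested. The single Sagunja-tang libraries had 56.1, 54.7 and 69.4 CPM at high, medium and low dose. Sibjeondaebo-tang had 60.5, 62.8 and 62.6 CPM at the high dose, 63.6, 53.4 and 59.8 CPM at the medium dose and 61.8, 54.8 and 60.7 CPM at the low dose, and these ranges overlap. Samul-tang had 61.1 and 54.2 CPM at the high dose and 61.9 and 65.3 CPM at the low dose, so both high libraries lay below both low ones. High against low gave log2 differences of 0.03 (95% interval -0.10 to 0.15, adjusted p = 0.896) for Palmul-tang, 0.07 (-0.06 to 0.20, adjusted p = 0.481) for Sibjeondaebo-tang and -0.14 (-0.30 to 0.01, adjusted p = 0.57) for Samul-tang, none past the threshold of 0.05. The summed level of the nuclear RNAs MALAT1 and NEAT1 also separated vehicle (692 to 739 CPM) from the extract libraries (424 to 605 CPM). The mitochondrial share of counts was 12.4% to 14.5% with vehicle, a range that the extract libraries of the Samul-tang and Sagunja-tang set straddle (11.2% to 16.7%) and those of the other set exceed (14.8% to 19.7%). The summed level of 5 cholangiocyte markers was 294 to 295 CPM with vehicle and higher in every extract library, at 309 to 403 CPM. Of these, KRT7 was at 0 in 16 of 30 libraries and at most 0.0734 CPM, and CFTR was at 0 in 29, while SOX9 (106 to 199 CPM), EPCAM and KRT19 made up the sum. The part of any of these in the NR0B2 difference was not tested.

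**Figure D2:**
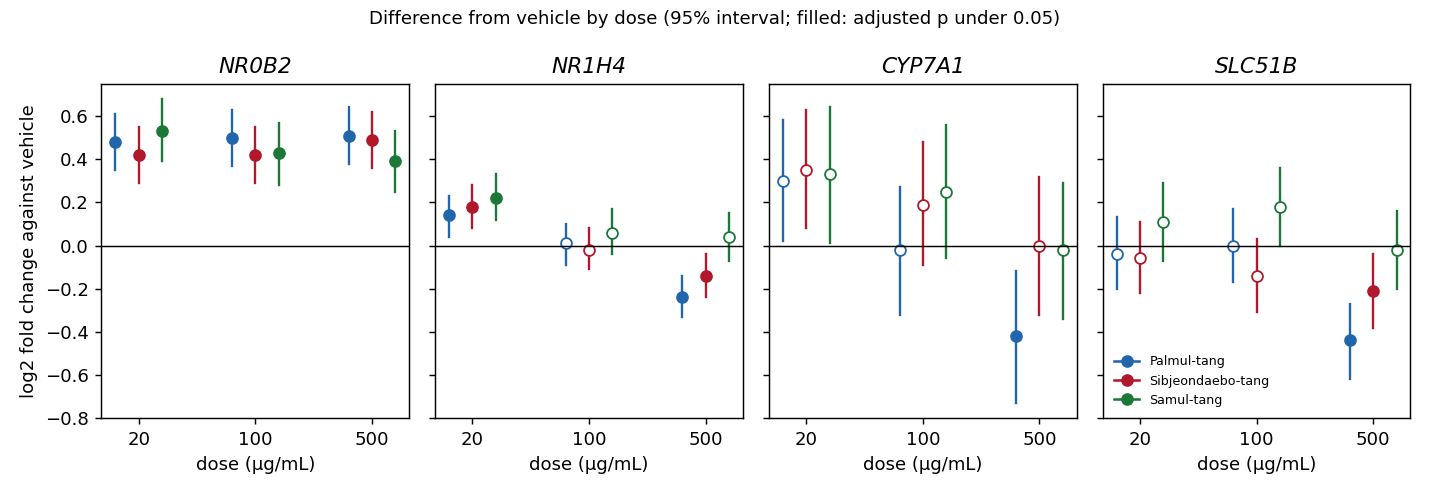
Log2 fold change against vehicle (vertical axis) by dose in µg/mL (horizontal axis) for NR0B2, NR1H4, CYP7A1 and SLC51B in 3 formulas, with 95% intervals and filled symbols where the adjusted p is under 0.05. NR0B2 lies between 0.39 and 0.53 at every dose, while NR1H4 passes from 0.14 to 0.22 at 20 µg/mL to -0.24 in Palmul-tang at 500 µg/mL.

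NR1H4 (FXR; chromosome 12, 100473708 to 100564413) was lower at the high dose than at the low dose in each formula, and below vehicle at the high dose of Palmul-tang, Sibjeondaebo-tang and Sagunja-tang but not of Samul-tang. Palmul-tang high had 42.7, 40.1 and 44.3 CPM, Palmul-tang medium 52.1, 48.5 and 49.6 CPM, and Palmul-tang low 54.6, 56.3 and 53.7 CPM. All high libraries lay below all medium libraries, which lay below all low ones. The same order held in Sibjeondaebo-tang, with 45, 44 and 46.6 CPM at the high dose, 50.7, 48.1 and 49.1 CPM at the medium dose and 54.6, 55 and 59.7 CPM at the low dose. Vehicle, at 49.4, 50.5 and 49.6 CPM, lay among the medium doses. In Samul-tang the high dose gave 51.7 and 50.7 CPM and the low dose 58.9 and 57.4 CPM, again without overlap, and the single Sagunja-tang libraries had 37.2, 53.2 and 54.6 CPM at high, medium and low dose. The lowest library of all 30 was that of Sagunja-tang high, and the highest was replicate 3 of Sibjeondaebo-tang low.

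From low to high dose NR1H4 fell by 0.37 ± 0.048 on the log2 scale in Palmul-tang (adjusted p = 1.75e-06) and fell by 0.32 ± 0.047 in Sibjeondaebo-tang (adjusted p = 7.47e-06). Without replicate 3 of Sibjeondaebo-tang low, the library with fibroblast genes, the latter difference was -0.28 ± 0.0511 (adjusted p = 0.000235). In Samul-tang the difference was -0.18 ± 0.057 with a 95% interval of -0.30 to -0.07 and an adjusted p of 0.136. The dose responses of the formulas did not differ past the threshold: Samul-tang minus Palmul-tang was 0.19 (0.04 to 0.34, adjusted p = 1), and Sibjeondaebo-tang minus Palmul-tang was 0.05 (-0.08 to 0.19, adjusted p = 0.845). Against vehicle NR1H4 was on both sides. It was lower in Palmul-tang high (-0.24, adjusted p = 0.000345) and Sibjeondaebo-tang high (-0.14, adjusted p = 0.0206). It was higher in Palmul-tang low (0.14, adjusted p = 0.0324), Sibjeondaebo-tang low (0.18, adjusted p = 0.00578) and Samul-tang low (0.22, adjusted p = 0.00549). The Palmul-tang high call held under every alternative. The call in Sibjeondaebo-tang high was lost without its replicate 2 (adjusted p = 0.0878) and without a filter (0.0646). In Palmul-tang low it was lost without its replicate 2 (0.121), vehicle replicate 1 (0.0643) or vehicle replicate 3 (0.0744), and without a filter (0.0739). In Sibjeondaebo-tang low it was lost without its replicate 3 (0.0597), and in Samul-tang low without its replicate 2 (0.0732).

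Summed levels of cell type markers also differed between doses within a formula. The sum of 10 hepatocyte markers was 57173 to 60435 CPM in Palmul-tang high and 65521 to 66199 CPM in Palmul-tang low, while vehicle had 59801 to 61973 CPM. For Sibjeondaebo-tang it was 62211 to 64239 CPM at the high dose and 65709 to 67391 CPM at the low dose, and for Samul-tang 59934 to 61503 CPM and 67375 to 67976 CPM. This sum is weighted to its abundant members, such as APOB (11734 to 17466 CPM), and HNF4A, also on the list, rose from low to high dose in Sibjeondaebo-tang.

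Lists of other cell types differed with dose as well. The sum of 5 immune markers was 1664 to 1773 CPM in Palmul-tang high and 1357 to 1501 CPM in Palmul-tang low, 1622 to 1826 and 1405 to 1506 CPM in Sibjeondaebo-tang, and 1569 to 1658 and 1382 to 1557 CPM in Samul-tang. Nearly all of it was LYZ (1017 to 1758 CPM), while PTPRC was at 0 in 29 libraries and CD3E in 28. The sum of 9 fibroblast markers was lower at the high dose, at 3.97 to 5.16 against 6.54 to 7.62 CPM in Palmul-tang, 5.27 to 5.5 against 7.06 to 33.9 CPM in Sibjeondaebo-tang and 5.22 to 5.45 against 7.27 to 7.3 CPM in Samul-tang. So was that of 5 intestinal markers, at 388 to 400 against 414 to 423 CPM, 380 to 396 against 421 to 433 CPM and 386 to 393 against 434 CPM in the same order. Outside replicate 3 of Sibjeondaebo-tang low, nearly all of the fibroblast sum was PDGFRB (3.83 to 7.34 CPM). The intestinal sum was nearly all VIL1 and LGR5. Cholangiocyte markers did not overlap in Sibjeondaebo-tang (380 to 403 CPM at the high dose, 324 to 331 CPM at the low dose) and Samul-tang (338 to 342 and 323 to 329 CPM). The nuclear RNAs did not overlap in Sibjeondaebo-tang (424 to 480 and 522 to 541 CPM) and Samul-tang (548 to 550 and 560 to 605 CPM), nor did 5 endothelial markers in Samul-tang (2.06 to 2.18 and 2.38 to 2.56 CPM). The part of these and of the hepatocyte markers in the dose differences of the genes described here was not tested.

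**Figure D3:**
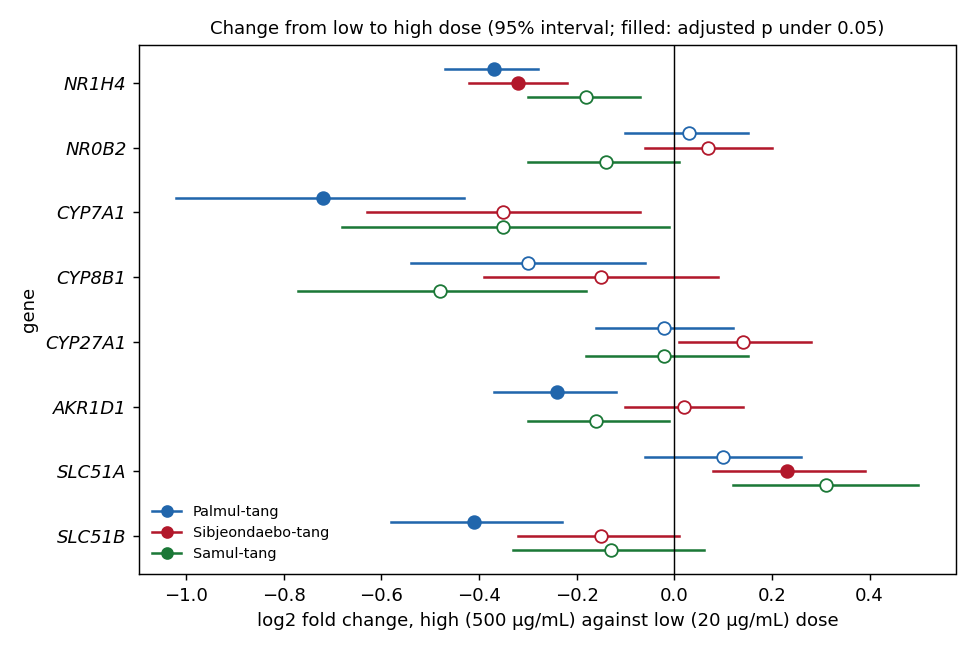
Log2 fold change from the low (20 µg/mL) to the high (500 µg/mL) dose for 8 genes in 3 formulas (horizontal axis), with 95% intervals and filled symbols where the adjusted p is under 0.05. NR1H4, CYP7A1, AKR1D1 and SLC51B are filled and below 0 in Palmul-tang (-0.24 to -0.72), and SLC51A is filled and above 0 in Sibjeondaebo-tang (0.23).

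CYP7A1, the rate-limiting enzyme, had the largest log2 difference of the 8 tested genes in any comparison of high with low dose. Palmul-tang high had 3.38, 3.69 and 3.64 CPM and Palmul-tang low 5.25, 6.57 and 5.68 CPM, with no overlap. The level fell by 0.72 ± 0.145 on the log2 scale (95% interval -1.02 to -0.43, adjusted p = 0.00125), to 0.606 of the low-dose level, and the call held under every alternative. Vehicle had 4.73, 4.06 and 5.66 CPM, all above the high-dose libraries, with its highest library above the lowest of the low dose. In Sibjeondaebo-tang the high dose gave 4.1, 4.95 and 5.24 CPM and the low dose 5.54, 6.45 and 6.33 CPM. These libraries also did not overlap, but the log2 difference of -0.35 ± 0.137 (-0.63 to -0.07) did not pass the test (adjusted p = 0.0675). It was -0.38 and called without a filter (adjusted p = 0.0141) and with the 2 groups fitted alone (0.0149). Samul-tang had 5.2 and 4.19 CPM at the high dose against 6.42 and 5.61 CPM at the low dose, a log2 difference of -0.35 ± 0.165 (-0.68 to -0.01, adjusted p = 0.477). Counts behind these values were small, 79 to 234 in a library.

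Against vehicle CYP7A1 was lower in Palmul-tang high (log2 -0.42 ± 0.149, adjusted p = 0.0287) and was called at no other dose. The call was lost without vehicle replicate 1 (0.0585) or 3 (0.176) and without Palmul-tang high replicate 1 (0.0982), 2 (0.0578) or 3 (0.0526), all adjusted p, with log2 values of -0.45 to -0.30. The 3 low-dose differences from vehicle were 0.30 (0.02 to 0.58) in Palmul-tang, 0.35 (0.08 to 0.63) in Sibjeondaebo-tang and 0.33 (0.01 to 0.64) in Samul-tang, with adjusted p of 0.117, 0.0575 and 0.175. For CYP7A1 in Sibjeondaebo-tang low the difference was called under 5 of 11 alternatives: without a filter (0.0132), with the 2 groups alone (0.02), with the replicate block (0.0448), and without vehicle replicate 3 (0.0209) or its own replicate 1 (0.0499). In Palmul-tang low it was called without vehicle replicate 3 (0.43, adjusted p = 0.0431).

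AKR1D1 (chromosome 7, 138002324 to 138117986), the 5-beta-reductase, separated Palmul-tang from Sibjeondaebo-tang at the high dose. Palmul-tang high had 23.7, 20.4 and 21.6 CPM, and Sibjeondaebo-tang high had 26.2, 26.4 and 26.9 CPM, with no overlap. Sibjeondaebo-tang was higher by 0.27 ± 0.06 on the log2 scale (0.15 to 0.39, adjusted p = 0.00352), although without Palmul-tang high replicate 2 the adjusted p was 0.0816. Low-dose levels were alike in range, at 24.8, 25.9 and 27.2 CPM in Palmul-tang and 26.9, 25.6 and 26 CPM in Sibjeondaebo-tang. Within Palmul-tang AKR1D1 fell by 0.24 ± 0.06 from low to high dose (adjusted p = 0.00852), a call lost without Palmul-tang high replicate 2 (0.0731) or Palmul-tang low replicate 3 (0.0693). Within Sibjeondaebo-tang the difference was 0.02 (-0.10 to 0.14). The test of the difference between these dose responses gave 0.26 ± 0.084 (0.09 to 0.43) and an adjusted p of 0.117, so the responses were not shown to differ. No dose differed from vehicle past the threshold, where the groups had 24.9, 22.3 and 24.8 CPM in vehicle and 23.6 and 23.2 CPM in Samul-tang high against 25.8 and 26.4 CPM in Samul-tang low. Sibjeondaebo-tang high was nearest (0.15, 0.03 to 0.27, adjusted p = 0.0507). It was called with the replicate block (0.0492) and without vehicle replicate 3 (0.0467). Palmul-tang high (-0.12, adjusted p = 0.118) was called lower without vehicle replicate 2 (0.0446) or its own replicate 1 (0.0278).

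CYP8B1 (chromosome 3, 42856005 to 42876165), the sterol 12-alpha-hydroxylase, was called once. Samul-tang high had 3.53 and 2.59 CPM against 3.85, 4.15 and 4.43 CPM in vehicle, a log2 fold change of -0.43 ± 0.133 (adjusted p = 0.0228). This call was lost in 6 of the alternatives: without Samul-tang high replicate 3 (log2 -0.22, adjusted p = 0.402), vehicle replicate 2 (0.0593) or vehicle replicate 3 (0.0754), without a filter (0.0577), with the 2 groups fitted alone (0.0544) and with DESeq2 (0.0532). From low to high dose the log2 differences were -0.48 (-0.77 to -0.18, adjusted p = 0.115) in Samul-tang, -0.30 (-0.54 to -0.06, adjusted p = 0.139) in Palmul-tang and -0.15 (-0.39 to 0.09, adjusted p = 0.392) in Sibjeondaebo-tang. Palmul-tang had 4.31, 3.41 and 3.6 CPM at the high dose and 4.83, 4.3 and 4.94 CPM at the low dose, which overlap by 1 library pair. Exons of CYP8B1 share 142 of 4441 bases with ACKR2 on the other strand (1.65 CPM), and no source used here says whether counting used strand. ACKR2 was also lower in Samul-tang high than in vehicle (-0.81 ± 0.19, adjusted p = 0.00325). It was called lower at every other tested dose but Samul-tang low, where it had -0.57 ± 0.19 (adjusted p = 0.0511). In Sibjeondaebo-tang low ACKR2 had -0.92 ± 0.17 (adjusted p = 0.000284), while CYP8B1 had 0.05 (adjusted p = 0.799) against vehicle. The part of ACKR2 in the CYP8B1 value was not tested.

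CYP27A1 (chromosome 2, 218781749 to 218815293), which starts the alternative route, was called in none of the 18 comparisons. All 30 libraries lay between 138 and 173 CPM, and vehicle had 157, 154 and 152 CPM. Both ends of that range belong to the high dose, the lowest to Sagunja-tang high and the highest to Palmul-tang high replicate 3, whose group had 141, 144 and 173 CPM. The difference nearest to the threshold was high against low in Sibjeondaebo-tang, 0.14 (0.01 to 0.28, adjusted p = 0.135).

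The basolateral exporter has an alpha and a beta subunit, and the 2 genes were never called in the same comparison. SLC51B (chromosome 15, 65045370 to 65053396) had 6.37, 5.92 and 5.77 CPM in Palmul-tang high, 8.32, 7.84 and 7.95 CPM in Palmul-tang low and 8.44, 8.51 and 7.64 CPM in vehicle. The high-dose libraries lay below all others of the 30. SLC51B fell by 0.44 ± 0.085 on the log2 scale against vehicle (adjusted p = 0.00017) and by 0.41 ± 0.085 against the low dose (adjusted p = 0.00202), and both calls held under every alternative. Palmul-tang medium had 8.65, 7.98 and 8.03 CPM, with a 95% interval of -0.17 to 0.17 for its log2 difference from vehicle. In Sibjeondaebo-tang the high dose gave 6.91, 6.94 and 7.46 CPM, all below the low dose at 7.68, 7.82 and 8.23 CPM. Its difference from the low dose was -0.15 (-0.32 to 0.01, adjusted p = 0.201). Its difference from vehicle was -0.21 ± 0.083 and was called (adjusted p = 0.0491), a call lost without vehicle replicate 1 (0.0896) or 2 (0.124) or Sibjeondaebo-tang high replicate 1 (0.0821) or 2 (0.128), without a filter (0.124), with the 2 groups fitted alone (0.0637), with the replicate block (0.0501) and with DESeq2 (0.0977), at log2 values of -0.22 to -0.19. Samul-tang libraries overlapped, with 8.49 and 7.67 CPM at the high dose, 9.97 and 8.61 CPM at the medium dose and 9.61 and 8.2 CPM at the low dose.

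SLC51A (chromosome 3, 196211487 to 196243178) rose by 0.23 ± 0.077 from low to high dose in Sibjeondaebo-tang (adjusted p = 0.031), where SLC51B had a value of -0.15. The high-dose libraries had 23.5, 23.9 and 22.8 CPM and the low-dose libraries 21.9, 19 and 19 CPM, without overlap, while vehicle had 24, 25.1 and 22.1 CPM. The low dose was also lower than vehicle (log2 -0.25 ± 0.077, adjusted p = 0.0157). High against low lost its call without replicate 1 (0.126), 2 (0.0956) or 3 (0.0803) of the high dose or 2 (0.138) or 3 (0.126) of the low dose, with median-ratio factors (0.0517), without a filter (0.0509) and with DESeq2 (0.0616), at log2 values of 0.20 to 0.23. Low against vehicle lost its call without vehicle replicate 2 (0.116) or Sibjeondaebo-tang low replicate 2 (0.0827) or 3 (0.0787), at -0.22 to -0.20. Samul-tang had 27.3 and 24 CPM at the high dose and 18.8 and 22.6 CPM at the low dose (0.31, 0.12 to 0.50, adjusted p = 0.111), and in Palmul-tang the difference was 0.10 (-0.06 to 0.26, adjusted p = 0.544). Exons of SLC51A share 389 of 5293 bases with PCYT1A on the other strand, a gene with a median of 245 CPM, so the SLC51A level is uncertain without a record of strand. PCYT1A itself rose from low to high dose in Sibjeondaebo-tang (0.18 ± 0.039, adjusted p = 0.00117), the comparison in which SLC51A was called higher. It rose from low to high dose in Palmul-tang too (0.20 ± 0.039, adjusted p = 0.00102), where SLC51A was not called. Against vehicle PCYT1A was higher in Palmul-tang high (0.26 ± 0.039, adjusted p = 9.48e-06) and Sibjeondaebo-tang high (0.24 ± 0.04, adjusted p = 2.29e-05). SLC51A had 0.02 and -0.02 in these 2 comparisons. The PCYT1A difference from vehicle in Sibjeondaebo-tang low was 0.05 ± 0.039 (adjusted p = 0.34). The part of PCYT1A in the SLC51A values was not tested. SLC51B shares 60 of 940 bases with RASL12 on the other strand, which had a median of 0.365 CPM.

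The promoters of NR1H4 and of both exporter subunits are shown because NR1H4 and SLC51B were called lower together in Palmul-tang high while SLC51A was not. Each sequence is the 250 bases before the transcription start in the RefSeq promoter table (GRCh38.p14, plus strand), at chr12:100503110-100503359 for NR1H4, chr15:65045137-65045386 for SLC51B and chr3:196216284-196216533 for SLC51A. The windows of NR1H4 and SLC51A lie inside the gene spans given above, since the start in that table is downstream of the first base of the GENCODE gene. Capitals mark the nuclear receptor half-site AGGTCA, or TGACCT where it lies on the other strand.
NR1H4: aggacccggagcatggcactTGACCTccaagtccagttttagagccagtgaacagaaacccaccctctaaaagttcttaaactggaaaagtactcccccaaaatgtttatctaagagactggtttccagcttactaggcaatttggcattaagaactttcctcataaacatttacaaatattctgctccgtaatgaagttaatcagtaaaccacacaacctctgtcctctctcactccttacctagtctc
SLC51B: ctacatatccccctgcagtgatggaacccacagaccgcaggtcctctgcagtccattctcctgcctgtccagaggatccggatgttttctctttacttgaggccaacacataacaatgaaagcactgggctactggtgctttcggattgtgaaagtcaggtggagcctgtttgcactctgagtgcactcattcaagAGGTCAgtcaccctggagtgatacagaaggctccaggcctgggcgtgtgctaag
SLC51A: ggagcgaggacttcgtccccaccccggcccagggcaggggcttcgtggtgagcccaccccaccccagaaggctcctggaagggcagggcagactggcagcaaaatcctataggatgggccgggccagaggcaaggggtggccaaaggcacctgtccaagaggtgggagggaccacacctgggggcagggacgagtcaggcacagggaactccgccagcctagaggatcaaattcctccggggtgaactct
The NR1H4 window holds the half-site on the minus strand, with its first base 230 bases before the start, and the SLC51B window holds it on the plus strand, 54 bases before the start. The SLC51A window does not hold these letters. Of the 35116 promoters in the table, 12.1% hold the half-site in a window of this length, and of the 6 genes described here that are in the table (ABCB11, CYP27A1, SLC51A, AKR1D1, NR1H4 and SLC51B) 2 do. The window of AKR1D1, which was called lower from low to high dose in Palmul-tang, does not. CYP7A1, also called lower in Palmul-tang high, has no matched entry there. A match is a description of these letters and not of binding, and nothing here measured binding.

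Counted over the 8 tested genes, the calls in comparisons with vehicle are given beside the share of all tested genes called. In Palmul-tang high 1 gene was higher and 3 were lower, where 31.8% of all tested genes were called. At the medium dose of Palmul-tang 1 was higher (11.6% of all genes higher, 22.3% called either way), and at its low dose 2 were higher (11.5% and 23.2%). Sibjeondaebo-tang high had 1 higher and 2 lower (36%), its medium dose 1 higher (15.3% higher, 30.2% either way) and its low dose 2 higher and 1 lower (23%). Samul-tang high had 1 higher and 1 lower (18.5%), its medium dose 1 higher (10.3% higher, 19.8% either way) and its low dose 2 higher (6.47% and 11.3%). NR0B2 was among the higher genes in each. With 8 genes, counts of 1 to 4 are not far from these background shares, so the counts against vehicle are no result about the 8 genes.

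Within Palmul-tang, high against low dose called 4 of the 8 genes, all lower (CYP7A1, AKR1D1, NR1H4 and SLC51B), where 6.78% of all tested genes were called and 3.03% were lower. The median log2 difference of the 8 was -0.27, against 0.00 over all tested genes. The same 4 were the genes whose high-dose libraries all lay below the low-dose libraries, a pattern of 11.3% of tested genes. This order and the median come from the same libraries as the calls and add no separate support. The genes were chosen with earlier results of these data known, so the shares of all tested genes are no test of the 8 as a set. In Sibjeondaebo-tang 1 gene was higher and 1 lower (19.8% of all genes called), the median was -0.07 against 0.02, and 3 of 8 genes had all high libraries below all low ones (17.1% of tested genes). In Samul-tang, with 2 libraries a dose, edgeR called 0 of 8 (1.42% of all genes called), with 5 under an unadjusted p of 0.05 and 0 called by DESeq2. The Samul-tang median was -0.15 against a median near 0 over all genes, and 5 of 8 genes had all high libraries below all low ones (20.8% of tested genes).

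Between Sibjeondaebo-tang and Palmul-tang only AKR1D1 was called at the high dose, higher in Sibjeondaebo-tang, where 6.47% of all genes were called and 1.75% were higher. At the medium dose edgeR called 0 of 8 (0.0311% of all genes), with 1 under an unadjusted p of 0.05 and 0 by DESeq2. At the low dose it called 0 of 8 (0% of all genes), again with 1 under an unadjusted p of 0.05 and 0 by DESeq2. Intervals still allowed sizeable differences for the low genes: CYP7A1 at the high dose was 0.42 higher in Sibjeondaebo-tang (0.12 to 0.73, adjusted p = 0.0894) and SLC51B 0.23 higher (0.05 to 0.41, adjusted p = 0.111). For NR0B2 the differences were -0.01 (-0.14 to 0.12), -0.08 (-0.21 to 0.05) and -0.06 (-0.18 to 0.07) at high, medium and low dose. The tests of whether dose responses differ between formulas called 0 of 8 genes for Sibjeondaebo-tang against Palmul-tang (2% of all genes called), for Samul-tang against Palmul-tang (0.0124%) and for Sibjeondaebo-tang against Samul-tang (1.68%). Under an unadjusted p of 0.05 there were 2, 2 and 1 genes, and DESeq2 called 0 in each.

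Sagunja-tang had 1 library per dose, so its values have no replicate check and their 95% intervals (exact Poisson) cover counting error only. CYP7A1 had 3.01 CPM (2.39 to 3.73) at the high dose, 4.41 CPM (3.7 to 5.23) at the medium dose and 6.1 CPM (5.15 to 7.19) at the low dose. AKR1D1 had 17.5 CPM (16 to 19.1), 25 CPM (23.3 to 26.9) and 25.9 CPM (23.9 to 28) in the same order. NR1H4 had 37.2 CPM (35 to 39.6) at the high dose and CYP27A1 138 CPM (133 to 142). These 4 genes were lowest of all 30 libraries in Sagunja-tang high, as were 6.99% of tested genes. CYP8B1 had 2.97, 3.82 and 4.66 CPM at high, medium and low dose, SLC51A 21.7, 22.4 and 25.1 CPM and SLC51B 7.78, 7.83 and 8.35 CPM. Except for NR0B2, at 56.1, 54.7 and 69.4 CPM, each tested gene had its lowest level at the high dose and its highest at the low dose, an order that 20.5% of tested genes have. The hepatocyte marker sum was 56350, 62370 and 66649 CPM in these libraries at high, medium and low dose, and its part was not tested.

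The group means give an order from lowest to highest. For NR0B2 vehicle was lowest (44 ± 0.554 CPM) and clear of the rest, and the 12 extract groups followed from 54.7 CPM in Sagunja-tang medium to 69.4 CPM in Sagunja-tang low. For NR1H4 the order began with Sagunja-tang high (37.2), Palmul-tang high (42.4 ± 2.12) and Sibjeondaebo-tang high (45.2 ± 1.32) and ended with Palmul-tang low (54.8 ± 1.33), Sibjeondaebo-tang low (56.5 ± 2.82) and Samul-tang low (58.1 ± 1.01 CPM). CYP7A1 ran from 3.01 CPM in Sagunja-tang high and 3.57 ± 0.167 CPM in Palmul-tang high to 6.11 ± 0.493 CPM in Sibjeondaebo-tang low. Neighbours in these orders mostly overlapped in their libraries, in 9 of 12 pairs for NR0B2, 8 of 12 for NR1H4 and 10 of 12 for CYP7A1. For NR0B2 the pairs without overlap were vehicle with Sagunja-tang medium, Sagunja-tang medium with Sagunja-tang high (1 library each), and Samul-tang low with Sagunja-tang low.

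Other genes of the pathway are given from 4 lists of 75 genes, of which 63 could be tested. These lists too were chosen with earlier results known, so the shares beside their counts are no test of a list. Among 20 further genes of synthesis and conjugation 14 were tested, and CYP7B1 of the alternative route was among those too low. From low to high dose 1 was higher in Palmul-tang (6.78% of all tested genes called) and 2 in Sibjeondaebo-tang (19.8%), and none was lower in either. In Samul-tang (1.42%) edgeR called 0 of 14, with 3 under an unadjusted p of 0.05 and 0 by DESeq2. HSD3B7, which acts just after CYP7A1, rose from 39.7 ± 0.885 to 46.4 ± 1.56 CPM (SD, n = 3) in Palmul-tang (log2 0.22 ± 0.055, adjusted p = 0.00962; lost without Palmul-tang high replicate 1, 0.0601). In Sibjeondaebo-tang it had 0.18 ± 0.055 (adjusted p = 0.0158), a call lost without replicate 2 (0.121) or 3 (0.108) of the high dose, replicate 2 (0.0719) or 3 (0.0521) of the low dose, or a filter (0.118). The fatty acid and bile acid ligase SLC27A2 rose there by 0.23 ± 0.057 (adjusted p = 0.00411; without Sibjeondaebo-tang high replicate 3, 0.0591). Against vehicle 5 of 14 were lower and 1 higher in Palmul-tang high, where 31.8% of all tested genes were called, and 3 lower and 1 higher in Sibjeondaebo-tang high, where 36% were. STAR, which carries cholesterol into mitochondria, fell from 4.94 ± 0.351 to 2.71 ± 0.0825 CPM in Palmul-tang high (log2 -0.87 ± 0.11, adjusted p = 7.88e-07). The bile acid ligase SLC27A5 fell from 6.74 ± 0.554 to 4.93 ± 0.317 CPM (log2 -0.45 ± 0.12, adjusted p = 0.00465), and the peroxisomal import receptor PEX5 from 32.4 ± 1.65 to 24.9 ± 0.95 CPM (-0.38 ± 0.062, adjusted p = 1.95e-05). The gene called higher was SLC27A2, by 0.40 ± 0.059 in Palmul-tang high (adjusted p = 4.43e-06) and 0.46 ± 0.058 in Sibjeondaebo-tang high (adjusted p = 4.29e-07). The genes lower in Sibjeondaebo-tang high were STAR (-0.70 ± 0.11), PEX5 (-0.40 ± 0.062) and SLC27A5 (-0.31 ± 0.12). The SLC27A5 call there was lost under 5 of 11 alternatives.

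Of 15 further transport genes 10 were tested, and the uptake transporters SLC10A1 (NTCP), SLCO1B1 and SLCO1B3 were too low. From low to high dose 3 were higher and 0 lower in Palmul-tang (6.78% of all tested genes called), 4 higher and 1 lower in Sibjeondaebo-tang (19.8%), and 2 higher and 0 lower in Samul-tang (1.42%). The basolateral exporter ABCC3 (MRP3) rose in all 3 formulas, from 37.8 ± 0.805 to 59.8 ± 1.45 CPM in Palmul-tang (log2 0.66 ± 0.052, adjusted p = 1.04e-10), by 0.30 ± 0.052 in Sibjeondaebo-tang (adjusted p = 7.02e-05) and by 0.60 ± 0.063 in Samul-tang (adjusted p = 2.26e-07). The canalicular conjugate exporter ABCC2 (MRP2) rose by 0.40 ± 0.042 in Palmul-tang (adjusted p = 4.13e-08) and 0.32 ± 0.051 in Samul-tang (adjusted p = 0.000272). In Sibjeondaebo-tang ABCC2 had a value of -0.09 ± 0.042 (adjusted p = 0.146). ABCG5, which with ABCG8 forms the exporter of sterols into bile, fell from 16.4 ± 0.376 to 10.1 ± 1.71 CPM in Sibjeondaebo-tang (log2 -0.70 ± 0.081, adjusted p = 1.27e-07), while ABCG8 had -0.20 ± 0.079 (adjusted p = 0.0665). The xenobiotic exporter ABCB1 rose by 0.29 ± 0.045 in Palmul-tang (adjusted p = 4.11e-05) and by 0.30 ± 0.045 in Sibjeondaebo-tang (adjusted p = 7.63e-06). In Samul-tang ABCB1 had 0.06 ± 0.055 (adjusted p = 0.787). MYO5B rose by 0.20 ± 0.054 in Sibjeondaebo-tang (adjusted p = 0.00823), a call lost under 2 alternatives. Against vehicle 3 were higher and 1 lower in Palmul-tang high (31.8% of all genes called). These were ABCC3 (0.54 ± 0.051), ABCC2 (0.47 ± 0.042), ABCB1 (0.43 ± 0.045) and ABCG8 (-0.33 ± 0.078). In Sibjeondaebo-tang high 4 were higher and 2 lower (36%). They included ABCB1 (0.46 ± 0.045), MYO5B (0.21 ± 0.055), ABCG5 (-0.76 ± 0.081) and ABCG8 (-0.37 ± 0.079).

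**Figure D4:**
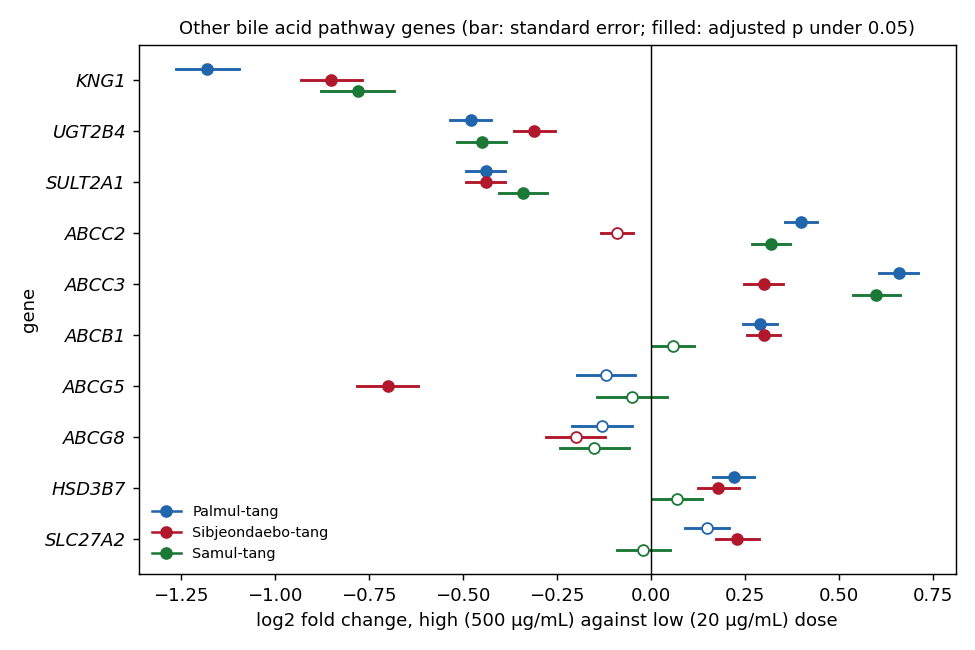
Log2 fold change from the low to the high dose (horizontal axis) for 10 other genes of the pathway in 3 formulas, with bars for the standard error and filled symbols where the adjusted p is under 0.05. KNG1, UGT2B4 and SULT2A1 are filled and below 0 in all 3 formulas and ABCC3 is filled and above 0 in all 3, while ABCC2 is filled in Palmul-tang and Samul-tang alone and ABCG5 in Sibjeondaebo-tang alone.

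Of 22 tested regulators other than FXR and SHP, 1 was higher in Palmul-tang from low to high dose, where 6.78% of all tested genes were called (MAFG, a repressor of synthesis genes, 0.18 ± 0.05, adjusted p = 0.0217). That call was lost without replicate 1 (0.142) or 3 (0.0605) of the high dose, without replicate 1 (0.109) or 3 (0.0701) of the low dose, without a filter (0.111) and with the 2 groups fitted alone (0.066). In Sibjeondaebo-tang 3 were higher and 2 lower (19.8% of all tested genes called). HNF4A, the hepatocyte nuclear receptor that activates CYP7A1, rose there from 308 ± 1 to 353 ± 1.23 CPM (0.19 ± 0.045, adjusted p = 0.00204). RXRB, a partner of FXR, had -0.21 ± 0.062 (adjusted p = 0.0154; 0.0544 without the high-dose and 0.0587 without the low-dose replicate 2). In Samul-tang (1.42%) edgeR called 0 of 22, with 1 under an unadjusted p of 0.05 and 0 by DESeq2. Against vehicle, 5 were higher and 3 lower in Palmul-tang high (31.8% of all tested genes called), and 9 higher and 5 lower in Sibjeondaebo-tang high (36%). RXRA, the main hepatic partner of FXR, fell from 63.4 ± 4.29 to 51.4 ± 1.4 CPM in Palmul-tang high (-0.30 ± 0.06, adjusted p = 0.000247). The pioneer factor FOXA2 rose in Palmul-tang high (0.38 ± 0.063, adjusted p = 2.27e-05) and in Sibjeondaebo-tang high (0.37 ± 0.063, adjusted p = 2.86e-05), and so did the coactivator PPARGC1A (0.35 ± 0.071, adjusted p = 0.000292, and 0.43 ± 0.071, adjusted p = 1.83e-05). MAFF rose in both as well (0.49 ± 0.094, adjusted p = 0.000161, and 0.42 ± 0.095, adjusted p = 0.000749).

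Genes known as FXR targets moved both ways. The list does not record whether FXR raises or lowers each gene, so its counts and medians do not measure FXR activity. Of 19 tested, 2 were higher and 6 lower from low to high dose in Palmul-tang (6.78% of all tested genes called), 6 higher and 3 lower in Sibjeondaebo-tang (19.8%), and 1 higher and 3 lower in Samul-tang (1.42%). Medians were -0.06, -0.01 and -0.05, against all-gene medians that were near 0 in Palmul-tang and Samul-tang and 0.02 in Sibjeondaebo-tang. KNG1, the kininogen gene that FXR activates, fell from 10.6 ± 0.335 to 4.71 ± 0.339 CPM in Palmul-tang (log2 -1.18 ± 0.084, adjusted p = 1.49e-11), by 0.85 ± 0.081 in Sibjeondaebo-tang (adjusted p = 2.98e-09) and by 0.78 ± 0.097 in Samul-tang (adjusted p = 4.24e-06). UGT2B4, which glucuronidates bile acids, fell by 0.48 ± 0.055, 0.31 ± 0.054 and 0.45 ± 0.065 in the same order (adjusted p of 2.5e-07, 8.8e-05 and 6.97e-05). SULT2A1, which sulfates them, fell by 0.44 ± 0.052 in Palmul-tang and by 0.44 ± 0.052 in Sibjeondaebo-tang (adjusted p of 4.94e-07 and 1.75e-07). In Samul-tang SULT2A1 had -0.34 ± 0.063 (adjusted p = 0.00215), a call lost without Samul-tang high replicate 2 (0.161) or low replicate 3 (0.221) and with the 2 groups alone (0.0614). AKR1B10 rose most, by 1.63 ± 0.06 in Palmul-tang, 1.36 ± 0.06 in Sibjeondaebo-tang and 1.51 ± 0.073 in Samul-tang (adjusted p of 4.79e-19, 6.53e-17 and 2.26e-15). It is better known as a target of the oxidant sensor NRF2 than of FXR. Against vehicle 4 targets were higher and 5 lower in Palmul-tang high (31.8% of all tested genes called), and 7 higher and 2 lower in Sibjeondaebo-tang high (36%), where the complement gene C3 rose from 2356 ± 48.2 to 2966 ± 111 CPM (0.33 ± 0.05, adjusted p = 4.6e-06).

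For the 2 genes called most often, the tested genes with the most similar profile were sought over the 9 extract groups, by the root mean square difference of the log2 fold changes against vehicle. These 9 comparisons share their vehicle libraries. NR0B2, with a root mean square fold change of 0.466, was nearest to SLC38A11 (0.056), MANF (0.056) and SHB (0.057). NR1H4, at 0.142, was nearest to DRAM1 (0.045), BMAL1 (0.056) and LYST (0.056). The fold changes of DRAM1 ran from -0.28 to 0.18 and those of NR1H4 from -0.24 to 0.22, while those of MANF ran from 0.35 to 0.48 and those of NR0B2 from 0.39 to 0.53.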

How the data were processed

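RNA was sequenced as paired-end reads from a directional kit, per the labels' protocols. The authors deposited expected counts per Ensembl gene, which divide reads among transcripts by estimate, so 8.56% of values were not whole. Per the submitters' processing notes, reads passed through Trim Galore 0.6.5, FastQC 0.11.9, STAR 2.7.3a and RSEM 1.3.3 on hg38. The annotation release, and whether counting used strand, are not given in the sources used here. A further 240 columns belonged to no sample here and were not read.

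Counts were rounded, filtered with filterByExpr at its defaults (count 10, total 15) to 16083 genes and scaled by TMM. All groups except Sagunja-tang (10 groups, 27 libraries) entered 1 edgeR 4.0.16 quasi-likelihood fit (R 4.3.3, robust, 17 residual degrees of freedom). The 18 two-sided comparisons were adjusted by Benjamini-Hochberg over all tested genes, with a threshold of 0.05. Standard errors are the absolute log2 fold change over the square root of F. CPM uses TMM factors over all 30 libraries. Tests were also run on simulated counts, drawn without a difference between the label sets, and the outcome is not given here. That run cannot speak to the comparisons with vehicle, where extract and set cannot be told apart. Positions are from GENCODE 29 and promoters from RefSeq, where 6 of the 10 genes were matched. Replicate pairs differed by a chi-square of 3.12 to 33.6 per gene, so all were kept as separate libraries.

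The 10 genes and the pathway and marker lists were chosen with earlier results of these data known. Named from each list are up to 4 called genes with the smallest adjusted p, in high against low dose and in the high doses of Palmul-tang and Sibjeondaebo-tang against vehicle. Not each of these genes has its value printed for every such comparison. ABCC2 and ABCG8 in Sibjeondaebo-tang high against low, and ABCB1 in Samul-tang high against low, fall outside this rule and were named after their values were seen. Alternatives were median-ratio factors, no filter, a replicate block, the compared groups alone, DESeq2 1.42.0 and each replicate left out. The series' wortmannin control was not analysed here.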

Additional observations from a re-analysis of the deposited data

Results flagged for a closer look

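The response to dose differed between formulas for 3 of the 10 tested transport genes, none of them among the main genes described. The direct test set high minus low in 1 formula against high minus low in another. The 3 are named because they were called. Of all tested genes 2% were called between Sibjeondaebo-tang and Palmul-tang, and 1.68% between Sibjeondaebo-tang and Samul-tang. In both tests edgeR called 0 of 14 synthesis and conjugation genes, 0 of 22 regulators and 0 of 19 FXR targets. Between Sibjeondaebo-tang and Palmul-tang the difference was -0.49 ± 0.059 (SE, log2) for ABCC2 (adjusted p = 2.13e-06, edgeR), -0.36 ± 0.073 for ABCC3 (adjusted p = 0.00397) and -0.58 ± 0.11 for ABCG5 (adjusted p = 0.00233). Between Sibjeondaebo-tang and Samul-tang it was -0.40 ± 0.066 for ABCC2 (adjusted p = 0.000268), -0.65 ± 0.12 for ABCG5 (adjusted p = 0.00178) and -0.30 ± 0.081 for ABCC3 (adjusted p = 0.0498). The last was lost without 8 of the 10 libraries in turn, with an adjusted p of up to 0.204 (without Samul-tang low replicate 3).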

How the results depend on the processing

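Of 144 values (8 genes in 18 comparisons), 26 were called, 15 of these under every alternative, and 11 lost the call under at least 1. A further 10 were called under an alternative alone, and none reversed. The number of the 8 genes called moved from 2 to 1 with median-ratio factors or DESeq2 in Sibjeondaebo-tang high against low, and from 2 to 1 without a filter, with the groups alone or with DESeq2 in Samul-tang high against vehicle. Without a filter it was 1 in Palmul-tang low and 1 in Sibjeondaebo-tang high against vehicle, 1 in Samul-tang high against low, and 2 in Sibjeondaebo-tang against Palmul-tang at the high dose. With 1 replicate left out it ran from 1 to 2 in Palmul-tang low, in each dose of Samul-tang and in Sibjeondaebo-tang medium against vehicle and in Sibjeondaebo-tang high against low. It ran from 1 to 4 in Sibjeondaebo-tang high and low against vehicle, from 0 to 1 between Sibjeondaebo-tang and Palmul-tang at the high dose, and from 0 to 1 for the difference of their dose responses. The cause was not tested.

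Counts over all genes moved more. In Samul-tang medium against vehicle they went from 3188 to 261 with the groups alone and 747 without its replicate 2. Samul-tang high against low had 229, 376 without a filter and 85 to 108 with a replicate left out. Between Sibjeondaebo-tang and Palmul-tang the medium dose had 5, 168 without a filter, 26 with the block and 25 with DESeq2, and 2 to 30 with a replicate left out. The low dose had 0, 72 without a filter and 3 with the groups alone, and the high dose 1041 and 545 without Sibjeondaebo-tang high replicate 3. Differences of dose responses had 322 (562 without a filter, 211 without Sibjeondaebo-tang high replicate 3) between Sibjeondaebo-tang and Palmul-tang. Between Samul-tang and Palmul-tang they had 2 (85 without a filter, 1 with median-ratio factors or without Samul-tang high replicate 2), and between Sibjeondaebo-tang and Samul-tang 270 (543 without a filter, 406 with the groups alone, 164 without Samul-tang low replicate 2). Of the calls between these formulas at the high dose, 27.1% were higher, 15% with median-ratio factors, 17% without a filter, 14.9% with the groups alone and 8.07% to 20.5% with a replicate left out (lowest without Sibjeondaebo-tang high replicate 3). In Sibjeondaebo-tang high against low 52.4% were higher and 39.8% without a filter, and in Samul-tang 49.8% and 61.2%. Single libraries lowered other counts by more than 1.5 times, from 3594 to 2309 in Palmul-tang medium (its replicate 3), from 3727 to 2392 in Palmul-tang low and 3696 to 2284 in Sibjeondaebo-tang low (vehicle replicate 2), from 2978 to 1300 in Samul-tang high (its replicate 2), from 1811 to 604 in Samul-tang low (its replicate 3), from 1091 to 702 in Palmul-tang high against low (low replicate 2), and from 3191 to 2042 in Sibjeondaebo-tang high against low (high replicate 3).

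The replicate numbers did not pair the libraries: over 111 pairs with the same number the correlation of deviations ran from -0.17 to 0.152 (median 0.00463), and 12 of 27 libraries correlated best with their own number. With the replicate number as a block, 3 calls among the 8 genes changed: AKR1D1 in Sibjeondaebo-tang high (0.15, adjusted p = 0.0492) and CYP7A1 in Sibjeondaebo-tang low (0.35, adjusted p = 0.0448) were gained against vehicle, and SLC51B in Sibjeondaebo-tang high (-0.21, adjusted p = 0.0501) was lost. Sagunja-tang levels under other scalings stayed within their counting intervals. Depth limits FGF19 and ABCB11, and 2 libraries a dose limit Samul-tang.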
